A study of Arabidopsis thaliana with 4 samples.

Results

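AT1G62510, AT2G37870, AT5G48490 and AT5G55450 are 4 Arabidopsis thaliana genes annotated as lipid transfer protein-like, taken from 13286 genes that had a probe set of their own name on the array. They were picked by name for that annotation and because earlier results of these same arrays placed their signals far apart between the genotypes, 3 higher and 1 lower in exo70A1-2. The values of that contrast therefore describe them and are given without a test. RNA of whole seedlings was measured on one-colour Affymetrix ATH1 arrays, 2 from the exo70A1-2 mutant and 2 from Col-0, the wild-type strain in which the mutant stands per the labels. All seedlings were 1 week old, came from sterilised seed kept cold for 3 days, and grew upright on 1.6% agar at 22 °C and 65% humidity in constant light, with 75 seeds to a plate. The labels name the mutated gene, EXO70A1, which encodes a subunit of the exocyst, the complex that holds secretory vesicles at the cell surface before they fuse. They give neither the kind of mutation nor a second allele or a rescued line, so each value of exo70A1-2 rests on a single mutant line.

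Lipid transfer proteins are small secreted proteins of land plants. A conserved set of cysteines forms disulphide bridges that hold a few helices around a tunnel, in which a fatty acid or another lipid can sit. They enter the secretory pathway by a signal peptide and are found mostly in the cell wall and on the plant surface, where members of the family are known to take part in building cuticle wax and suberin, and in defence. DIR1, a member of the group to which AT5G48490 and AT5G55450 belong, is known for its role in the signal of systemic acquired resistance, by which an infected leaf makes distant leaves more resistant. AT2G37870 belongs to another small group, called type V here. AT1G62510 belongs to the hybrid proline-rich proteins, in which a proline-rich stretch precedes the cysteine domain and to which the EARLI1 and AZI1 proteins of defence also belong. These groups come from general knowledge of the family and not from the deposited data. Sequences of the genes and proteins were not used here.

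Signals are MAS5 values on a linear scale, 1 per probe set and array. The median signal of an array was between 37.3 and 38.8, and across the 13648 tested probe sets the log2 signals of replicates correlated at 0.987 in exo70A1-2 and 0.980 in Col-0, against 0.932 to 0.955 between genotypes. For EXO70A1 itself 0 probe sets were named, so the genotype labels are not checked by its level. Separate cultures are not stated for arrays of the same genotype. The p-values, from a limma fit, therefore measure the spread between arrays only, and that spread may be technical. For each gene, the fit draws this spread toward that of probe sets of similar signal. Of 47 genes in 10 lists of tissue markers, 13 from 6 lists could be tested. The root marker PYK10 and the photosynthesis gene RCA were bright on all arrays, with lowest signals of 4356 and 4629 in exo70A1-2 and of 4505 and 4912 in Col-0. Markers of the endodermis, shoot epidermis and seed had no probe set of their own name here, and those of flowers and anthers were represented by 1 gene, too dim to test. The 1 of 13 markers that passed the test was AT1G09750 of the root cortex, which was lower in exo70A1-2; over all 7213 named genes tested 14.1% changed, 7.54% higher and 6.53% lower. The stomatal lineage gene SPCH had 24.1 and 19.9 in exo70A1-2, against 38.9 and 28.5 in Col-0. FMA had 32.1 and 33.5 in exo70A1-2, against 47.5 and 46.0 in Col-0. STOMAGEN, listed with them, had 181 and 154 in exo70A1-2, against 204 and 197 in Col-0. None of the 3 passed. With RNA from whole seedlings, fewer cells of a type and less RNA per cell cannot be told apart.

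AT5G48490 was higher in exo70A1-2 and the most even between replicates of the 3 genes with a higher signal there. It lies next to DIR1 in the genome. Its signal was 1228 and 1244 in exo70A1-2, against 277 and 330 in Col-0. Both mutant arrays were far above both Col-0 arrays, and the mutant arrays differed from each other by 0.02 on the log2 scale. The mean was 1236 ± 11.1 in exo70A1-2 and 303 ± 37.5 in Col-0 (SD, n = 2 arrays each, here and below), a log2 difference of 2.03 with a standard error of 0.12, or 4.09-fold. Standard errors, here and below, are those of the limma fit and do not rest on the gene's own arrays alone. Among the 4 combinations of 1 mutant and 1 Col-0 array, the log2 difference ran from 1.90 to 2.17. DIR1 itself had no probe set of its own name here, and its level was not analysed here.

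AT1G62510, of the hybrid proline-rich group, had the largest log2 difference of the 4 genes. Its signal was 565 and 618 in exo70A1-2, against 103 and 152 in Col-0. The groups did not overlap, and the arrays of a genotype were 0.13 apart on the log2 scale in exo70A1-2 and 0.56 in Col-0. The mean was 591 ± 37.3 in exo70A1-2 and 127 ± 34.4 in Col-0, a log2 difference of 2.24 (SE 0.18), or 4.72-fold, and 1.90 to 2.58 over the combinations of arrays. The gene directly before it, AT1G62500, is of the same group and is known as CO2, a marker of the root cortex. Signal of AT1G62500 was 63.5 and 65.8 in exo70A1-2, against 59.4 and 44.8 in Col-0, a log2 difference of 0.32 that did not pass the test (limma, adjusted p = 0.275). The other tested cortex marker, AT1G09750, had 573 and 580 in exo70A1-2, against 781 and 868 in Col-0, and fell by 0.51 on the log2 scale (SE 0.11, limma, adjusted p = 0.0151), a call that ended without exo70A1-2 replicate 1 (0.0732) or replicate 2 (0.0857) and without the intensity trend (0.0608). Of the 2 tested cortex markers 1 was lower, against 6.53% of all named genes tested, and the other did not pass. The summed signal of these 2 cortex markers was 637 and 646 in exo70A1-2, against 841 and 913 in Col-0, most of it from AT1G09750. The part of these cells in the value of AT1G62510 was not tested.

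AT2G37870, of type V, was near the dim limit in Col-0. This limit, a signal of 21.9, is the 40th percentile of mean log2 signal, and probe sets whose mean fell below it were not tested. Signal of AT2G37870 was 117 and 112 in exo70A1-2, against 21.2 and 30.9 in Col-0, where replicate 1 lay under the limit. The mutant arrays were both well above the limit and above both Col-0 arrays. The mean was 115 ± 4.14 in exo70A1-2 and 26.0 ± 6.87 in Col-0, a log2 difference of 2.16 (SE 0.21), or 4.48-fold. With 16 added to every signal before the logarithm, which weighs down dim values, the difference was 1.65.

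AT5G55450, of the same type IV group as DIR1 and AT5G48490, ran the other way. Its signal was 21.6 and 17.5 in exo70A1-2, against 69.8 and 73.4 in Col-0. Both mutant arrays were dim, and the Col-0 arrays lay close together above them. The mean was 19.6 ± 2.85 in exo70A1-2 and 71.6 ± 2.54 in Col-0, a log2 difference of -1.88 (SE 0.20). Since both mutant signals lay under the dim limit, the size of the fold is uncertain. The Col-0 level was 3.27-fold the dim limit. Over the combinations of arrays the log2 difference ran from -2.06 to -1.69, and with 16 added the difference was -1.30. The 2 further genes of this group that lie close by, AT5G55410 and AT5G55460, had no probe set of their own name here.

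**Figure D1:**
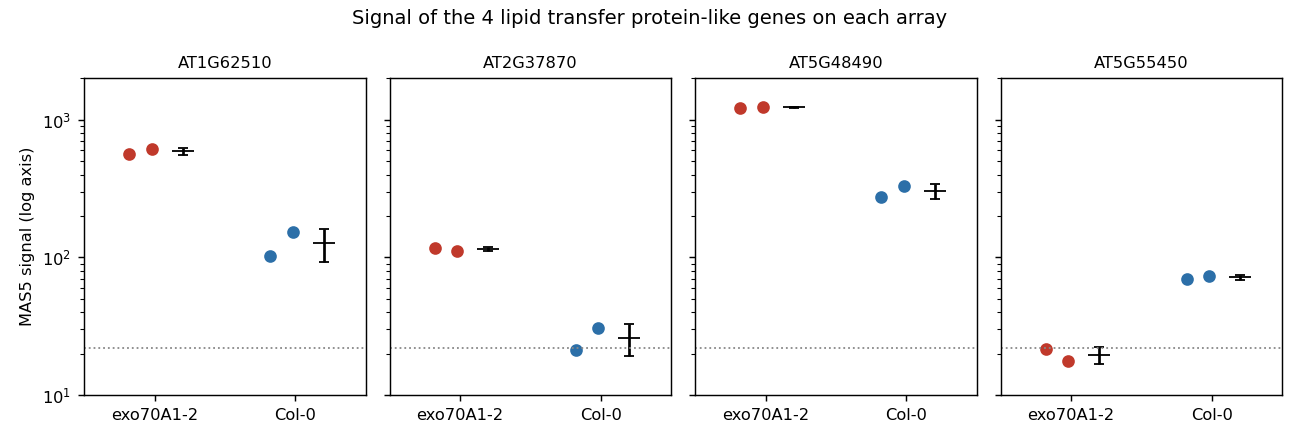
MAS5 signal (log axis) of the 4 genes, exo70A1-2 at the left of each panel and Col-0 at the right; points are arrays, bars the mean ± SD of 2 arrays, and the dotted line the dim limit of 21.9. AT1G62510, AT2G37870 and AT5G48490 sit higher in exo70A1-2 on every array, while AT5G55450 is at 21.6 and 17.5 in exo70A1-2 and at 69.8 and 73.4 in Col-0.

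By absolute log2 difference, AT1G62510 held rank 43 and AT5G48490 rank 67 among the 13648 tested probe sets, which describes how they were chosen. No rank is given for AT2G37870 and AT5G55450, which had dim arrays. Col-0 replicate 1 was the dimmer Col-0 array for all 4 genes, by 0.07 on the log2 scale for AT5G55450, 0.25 for AT5G48490, 0.55 for AT2G37870 and 0.56 for AT1G62510.

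The rest of the family was not used to choose these genes, and it was tested in the fit over all probe sets. The 7 lists of the family held 80 further genes, of which 36 had a probe set of their own name and 18 were bright enough to test. Of these 18 genes, 5 rose and 2 fell in exo70A1-2, and 11 did not pass (limma, Benjamini-Hochberg adjusted p under 0.05). Over all named genes tested 14.1% changed, and over all 13648 tested probe sets 16% changed, 8.54% being higher and 7.5% lower. The number of family genes that rose was 3 without exo70A1-2 replicate 1, and the number that fell was 1 without Col-0 replicate 2, exo70A1-2 replicate 1 or exo70A1-2 replicate 2. Over all probe sets 1165 were higher and 1024 lower, against 577 and 396 without exo70A1-2 replicate 2. The 7 of 18 are 38.9% of the tested family genes. The median log2 difference of the 18 genes was 0.09, against 0.00 for all named genes tested, with 10 above zero and 8 below. The 18 genes left untested stayed at or under a signal of 14.6 on every array. Nothing is thereby shown to be particular to the family, since the lists were drawn up with earlier results of these arrays known.

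Type I, the group of the classic abundant surface proteins, had 2 tested genes, and they moved in opposite directions. AT2G18370 had a signal of 504 and 555 in exo70A1-2, against 226 and 220 in Col-0. It rose by 1.25 on the log2 scale (SE 0.12, limma, adjusted p = 0.000442), or 2.37-fold, and the genotypes did not overlap. AT5G01870 had a signal of 107 and 109 in exo70A1-2, against 302 and 296 in Col-0. It fell by 1.47 (SE 0.12, limma, adjusted p = 0.000284), and was 2.78-fold lower in the mutant. Replicates of both genes lay close together, and both calls held in every setting tried.

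Both tested genes of type II, the smaller form of lipid transfer protein, rose by a modest amount. AT3G18280 had a signal of 755 and 710 in exo70A1-2, against 497 and 443 in Col-0, a log2 difference of 0.64 (SE 0.11, limma, adjusted p = 0.00720). AT1G48750 had 886 and 812 in exo70A1-2, against 634 and 623 in Col-0, a log2 difference of 0.43 (SE 0.11, limma, adjusted p = 0.0266). The call for AT1G48750 ended without exo70A1-2 replicate 1 (adjusted p = 0.199) or replicate 2 (0.102) and without the intensity trend (0.0895), while that for AT3G18280 held in every setting tried.

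The other genes of type V, the group of AT2G37870, were both tested. AT3G53980 had a signal of 630 and 448 in exo70A1-2, against 352 and 313 in Col-0. It rose by 0.68 (SE 0.17, limma, adjusted p = 0.0264). Its mutant arrays were the least even of the family genes that passed, and without exo70A1-2 replicate 1, the brighter one, the difference was 0.43 and did not pass (adjusted p = 0.156). The call also ended with dim probe sets kept (0.0542) and without the intensity trend (0.0726). AT5G05960 had 613 and 552 in exo70A1-2, against 535 and 480 in Col-0, a log2 difference of 0.20 that did not pass (limma, adjusted p = 0.279). Whether the differences of these genes differ from that of AT2G37870 was not tested, as AT2G37870 was chosen for its own.

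**Figure D2:**
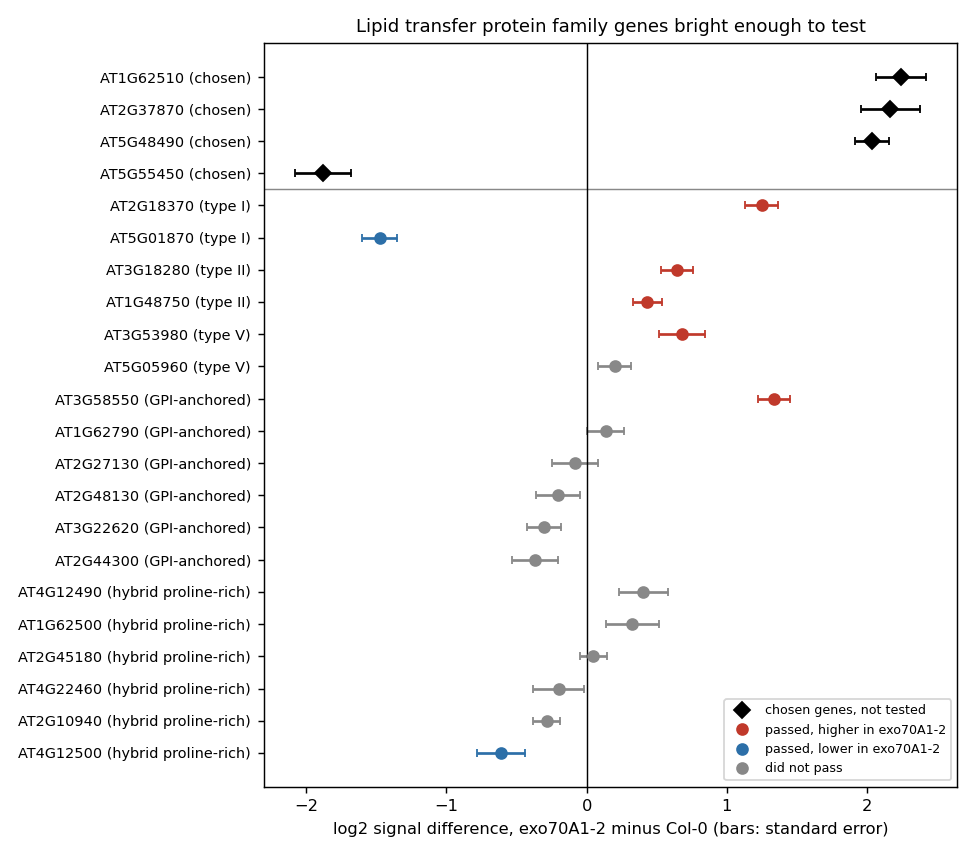
Log2 signal difference, exo70A1-2 minus Col-0, with its standard error, for the 4 chosen genes (black diamonds) and the 18 other tested genes of the family by group. Of the 18, 5 passed as higher (red) and 2 as lower (blue), from 1.34 for AT3G58550 to -1.47 for AT5G01870.

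Among the genes of lipid transfer proteins held to the membrane by a GPI anchor, and their relatives, 1 of 6 tested rose and 0 fell. That is 16.7% changed, near the 14.1% of all named genes tested. AT3G58550 had a signal of 841 and 750 in exo70A1-2, against 327 and 302 in Col-0. It rose by 1.34 (SE 0.12, limma, adjusted p = 0.000320), or 2.52-fold, the largest rise among the 18 genes, and its call held in every setting tried. Of the 5 that did not pass, AT3G22620 and AT1G62790 had the brightest probe sets. AT1G62790 stood at 0.14 on the log2 scale (limma, adjusted p = 0.522) and AT3G22620 at -0.30 (0.120). AT3G22620 had 302 and 306 in exo70A1-2, against 353 and 398 in Col-0.

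In the hybrid proline-rich group, that of AT1G62510, 1 of 6 tested genes fell and 0 rose. This share, 16.7%, is near the 14.1% of all named genes tested that changed. AT4G12500, of the EARLI1-like kind, had a signal of 43.4 and 41.6 in exo70A1-2, against 60.3 and 69.9 in Col-0. It fell by 0.61 (SE 0.17, limma, adjusted p = 0.0449), close to the threshold, and the call ended without Col-0 replicate 2 (0.105), exo70A1-2 replicate 1 (0.126) or exo70A1-2 replicate 2 (0.215), and with dim probe sets kept (0.0843). The gene just before it in number, AT4G12490, had 154 and 213 in exo70A1-2, against 146 and 128 in Col-0, a log2 difference of 0.41 that did not pass (limma, adjusted p = 0.150). AT2G45180 had 3622 and 3814 in exo70A1-2, against 3444 and 3755 in Col-0, and its arrays overlapped, with a log2 difference of 0.05. AT2G10940 had 1430 and 1467 in exo70A1-2, against 1708 and 1819 in Col-0, and at -0.28 it did not pass (limma, adjusted p = 0.0815). The log2 differences of these 6 genes ran from -0.61 to 0.41, and that of AT1G62510 was 2.24.

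Types III and IV added no tested gene. The 3 genes of type III, known from the tapetum of the anther, stayed at or under 5.22 on every array. The 3 further genes of type IV, DIR1 among them, had no probe set of their own name here.

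**Figure D3:**
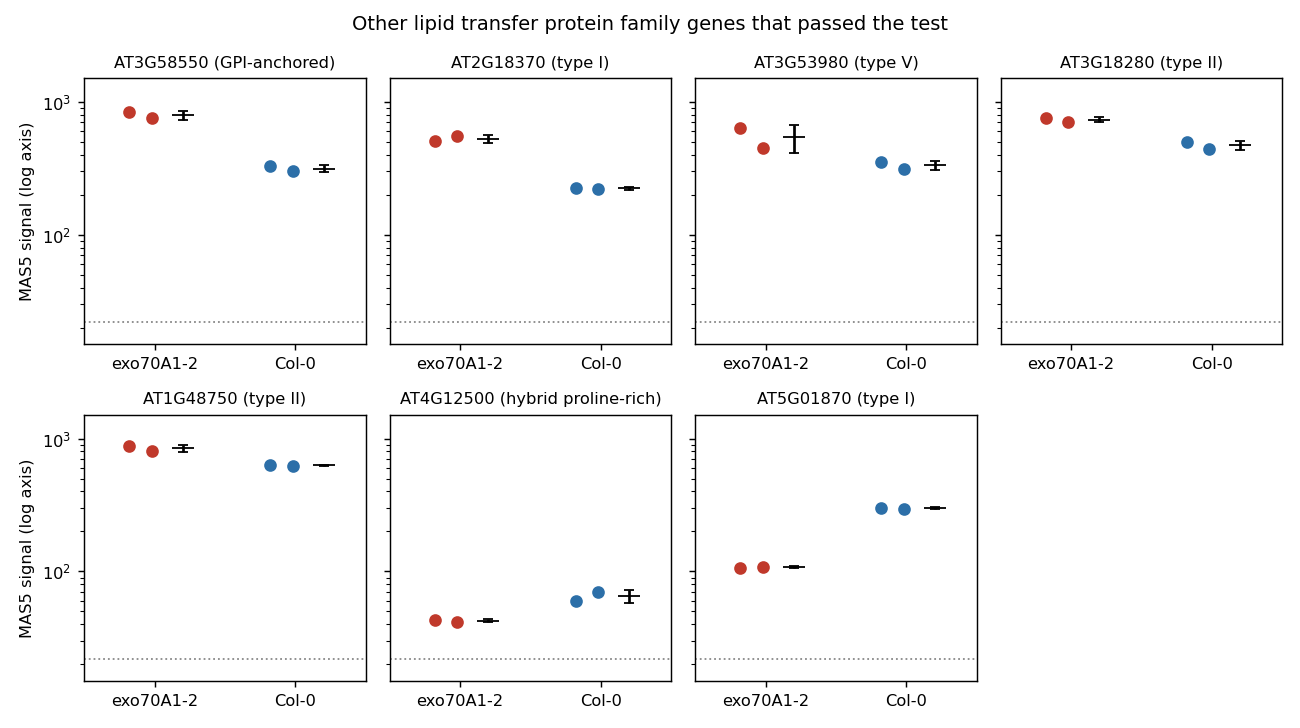
MAS5 signal (log axis) of the 7 other family genes that passed the test, exo70A1-2 at the left of each panel and Col-0 at the right, with points for arrays, bars for the mean ± SD of 2 arrays and a dotted line at the dim limit of 21.9. The 7 genes were drawn because they passed, so the gap between genotypes follows from that choice. AT3G53980 has the widest spread in exo70A1-2, at 630 and 448.

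Pathways in which lipid transfer proteins are known to work were hardly covered. Of 73 listed genes of wax, cutin and suberin synthesis and of systemic acquired resistance, 4 had a probe set of their own name and 2 were tested. Neither passed, so 0 changed (limma), against 14.1% of all named genes tested. The cutin gene AT5G33370 had 73.2 and 60.8 in exo70A1-2, against 74.4 and 75.3 in Col-0, a log2 difference of -0.17. AT5G52810, of the pipecolic acid branch of systemic acquired resistance, had 45.5 and 31.7 in exo70A1-2, against 51.1 and 41.4 in Col-0, a log2 difference of -0.28. So few values do not describe the pathways.

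The nearest genes in the genome were examined as well, 3 with a probe set of their own name on each side of each of the 4 genes. Of these 24 neighbours 14 were tested, 3 rose and 0 fell (limma), or 21.4% changed. Over all named genes tested 14.1% changed, 7.54% being higher and 6.53% lower. AT5G48540, 6 genes after AT5G48490, had a signal of 100.4 and 80.2 in exo70A1-2, against 47.1 and 43.0 in Col-0, and rose by 1.00 (SE 0.18, adjusted p = 0.00732). AT5G48430, 7 genes before AT5G48490, rose by 0.68 (SE 0.17, adjusted p = 0.0297), a call that ended without any 1 of Col-0 replicate 1 (0.0608), exo70A1-2 replicate 1 (0.187) and exo70A1-2 replicate 2 (0.0521), and with dim probe sets kept (0.0543). Between them, AT5G48480, AT5G48460 and AT5G48500 stood at -0.23, -0.48 and -0.35 and did not pass, so the tested genes closest to AT5G48490 had fitted differences below 0. AT1G62660, 14 genes after AT1G62510, rose by 0.63 (SE 0.12, adjusted p = 0.00879, and 0.0606 without exo70A1-2 replicate 2), and AT1G62480, 3 genes before it, stood at 0.01. The 1 tested neighbour of AT2G37870, AT2G37840, stood at 0.45 (adjusted p = 0.0949). AT2G37820, 3 genes before AT2G37870, was not tested, since its mean fell below the dim limit. Its signal was 26.2 and 24.4 in exo70A1-2, against 1.04 and 5.89 in Col-0, where both arrays were dim. The other untested neighbours were dim on all arrays. The 5 tested neighbours of AT5G55450 stood between -0.37 for AT5G55380 and 0.27 for AT5G55550, with AT5G55400 at 0.16, AT5G55520 at -0.34 and AT5G55530 at -0.05, and none passed.

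**Figure D4:**
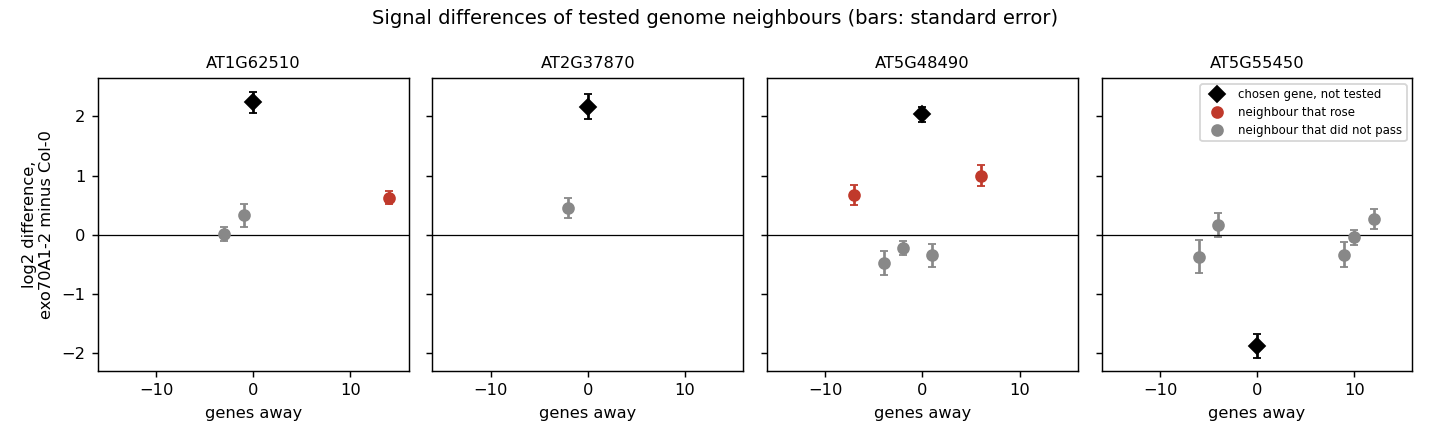
Log2 signal difference, exo70A1-2 minus Col-0, with its standard error, against the distance in protein-coding genes from each of the 4 genes (black diamonds at 0). The 3 neighbours that rose (red) lie 6, 7 and 14 genes away, and the tested genes right beside AT5G48490 and AT1G62510 (grey) stand at -0.35 and 0.32.

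Likeness across the 4 arrays was measured as the distance between log2 signals, each centred on the gene's own mean, over 7279 named probe sets other than those of the 4 genes. With 4 arrays it reflects mostly the genotype difference, and it is a description. AT1G62510 and AT2G37870 lay 0.16 apart, closer than AT2G37870 and AT5G48490 at 0.25 or AT1G62510 and AT5G48490 at 0.31, while AT5G55450 lay 3.92 to 4.14 from each of them. The 4 genes themselves were left out of the search that follows. Among the other named genes, that most like AT1G62510 and most like AT2G37870 was ATL8 (AT1G76410), which encodes a RING-type ubiquitin ligase, at distances of 0.18 and 0.30. ATL8 had 72.1 and 88.7 in exo70A1-2, against 14.9 and 19.3 in Col-0, where both arrays were dim. Of these other genes, AT4G27450 was the nearest to AT5G48490, at 0.23, and came after ATL8 for AT1G62510, at 0.26, and for AT2G37870, at 0.33. AT4G27450 had 301 and 375 in exo70A1-2, against 70.6 and 89.1 in Col-0. SIS (AT5G02020), a gene known to respond to salt, was the third of the other genes for AT2G37870, at 0.44, and for AT5G48490, at 0.27. AT2G27080 was the third of them for AT1G62510, at 0.48, and AT2G37750 came after AT4G27450 for AT5G48490, at 0.27.

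The genes most like AT5G55450, the 4 genes left out, were AT4G27657 at 0.14, AT1G78020 at 0.21 and AT4G27280 at 0.25. AT4G27657 had 15.2 and 13.1 in exo70A1-2, against 55.4 and 52.3 in Col-0, dim in the mutant as AT5G55450 was. AT1G78020 had 158 and 140 in exo70A1-2, against 509 and 479 in Col-0. AT4G27280 had 436 and 366 in exo70A1-2, against 1219 and 1255 in Col-0. The last 2 were bright in both genotypes, so among these 3 genes the fold of AT4G27657 alone has a dim side.

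**Figure D5:**
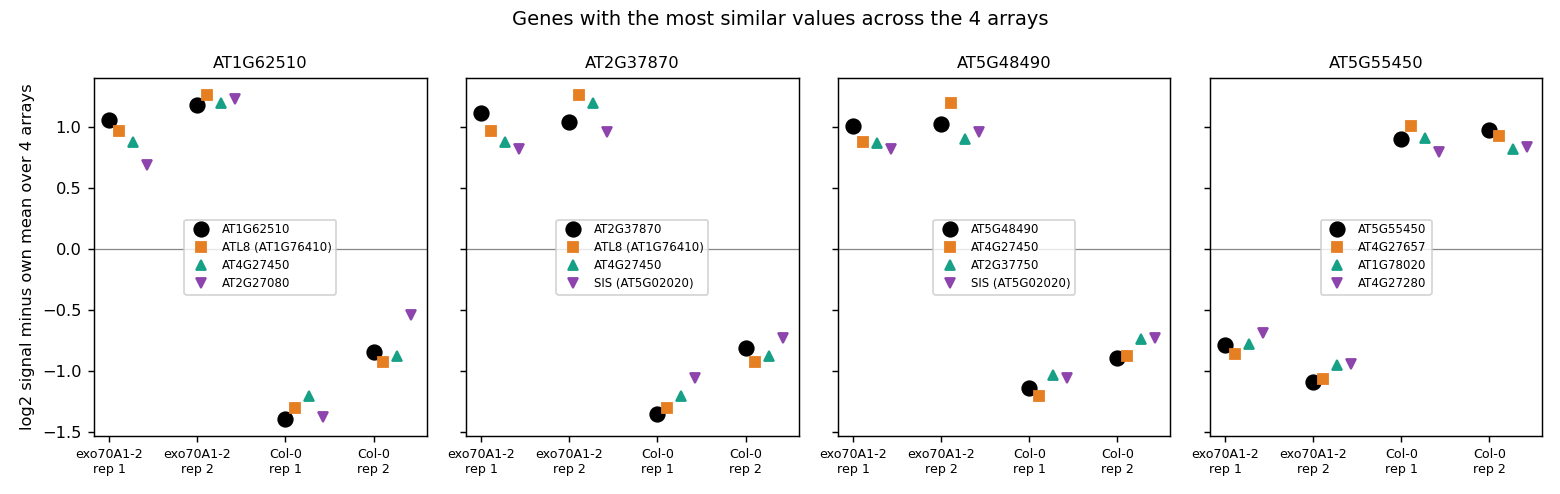
Log2 signal minus the gene's own mean over the 4 arrays, exo70A1-2 arrays at the left of each panel and Col-0 arrays at the right, for each of the 4 genes (black) and the 3 named genes nearest to it when the 4 genes are left out of the search. In the panels of AT1G62510, AT2G37870 and AT5G48490 all points are above 0 in exo70A1-2 and below 0 in Col-0, and in that of AT5G55450 the signs are turned.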

How the data were processed

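Each value of the deposited table is the linear intensity of 1 probe set on 1 array. It was made with MAS5 and GCOS per the submitters' processing notes, with versions not given in the sources used here, and the authors' values have an equal trimmed mean on all arrays. MAS5 subtracts mismatch probes on each array alone, which makes dim signals noisy. Signals were log2-transformed as they stood, and 64 control probe sets were left out. Of 22746 others, 13513 had 1 gene in the array's annotation, 503 had several and 8730 were unnamed here. The RefSeq table of assembly TAIR10.1 matched 13436 of the first kind and served for gene names and gene order alone.

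Probe sets whose mean log2 signal reached the 40th percentile were tested with limma 3.58.1 in R 4.3.3 (two-sided; lmFit, then eBayes with its trend option), adjusted over all of them by Benjamini-Hochberg, with a threshold of 0.05. Each gene is represented by its brightest probe set. The fit was also run on simulated arrays with independent noise. That run cannot speak to an effect shared by arrays of equal replicate number. Arrays were grouped by the genotype in their titles, and the number of arrays limits the precision. Genes named are the 4 genes, family genes that passed, the 2 brightest of each family list that did not, up to 3 changed and 2 unchanged genes of each other list, tested neighbours, and the 3 most similar named genes for each. AT4G12490, chosen after its values were seen, was added as an example. SPCH was also added, beyond the 2 unchanged genes of its list. The members and lists were chosen with earlier results of these data known. Alternatives were other scalings, filters, an added constant of 16, no intensity trend, a replicate block, each array left out in turn, and a threshold of 0.10. Figures were drawn with matplotlib 3.10.9.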

Additional observations from a re-analysis of the deposited data

How the results depend on the processing

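The log2 differences of AT1G62510, AT2G37870, AT5G48490 and AT5G55450 kept their sign under both other scalings, with 16 added, with the replicate block and without any 1 array. Leaving out 1 array gave 1.96 to 2.52 for AT1G62510, 1.89 to 2.44 for AT2G37870, 1.91 to 2.16 for AT5G48490 and -2.03 to -1.73 for AT5G55450; since the arrays lay apart by genotype, no such omission could turn a sign. With 16 added, AT2G37870 stood at 1.65 and AT5G55450 at -1.30, by construction, as dim signals are weighed down. The number of other family genes that rose ranged from 3 to 5, and of those that fell from 1 to 2, on leaving out single arrays, where the remaining array of that genotype is assumed to vary like the others; the 3 that rose were found without exo70A1-2 replicate 1. Without the intensity trend 3 rose. With no filter 1 fell, and with a filter at the 60th percentile 1 fell, since AT4G12500 was not among those tested. With the replicate number as a block 6 family genes rose and 4 fell, AT4G12490 (adjusted p = 0.0270), AT3G22620 (0.0239) and AT2G10940 (0.0118) then passing as well, 4 neighbours rose and 1 fell, and over all probe sets 2168 were higher and 2098 lower, against 1165 and 1024. The numbers were not taken as pairs, since the labels do not state what equal numbers share and each genotype has 2 arrays only. The replicate differences of the genotypes correlated at 0.28 across probe sets, so an effect shared by equal numbers is possible and was not tested further. Neighbours that rose numbered 1 to 3 and neighbours that fell 0 when 1 array was left out, the 1 being without exo70A1-2 replicate 2. Over all probe sets, leaving out 1 array gave 577 to 1696 higher and 396 to 1347 lower, the lowest of both without exo70A1-2 replicate 2. Without the trend 679 were lower, and at a threshold of 0.10, 1599 were lower. The cause of these differences was not tested unless stated. Counts of 0 for wax, cutin, suberin and resistance genes were 0 in every setting run, on at most 4 genes. No family gene that passed reversed. Noisy MAS5 values near background limit AT2G37870 in Col-0 and AT5G55450 in exo70A1-2.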
